A study of Mus musculus with 9 samples.

Results

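Mature CD4 thymocytes include rare cells that already carry effector-type genes. Candidates were picked by transcripts of 6 genes, and only 50 of the 252 picked cells reached the effector-type set used below. The genes were Ccl5 (a chemokine), Cxcr3 (a chemokine receptor), Klrb1c and Klrk1 (receptors best known from natural killer cells), Il2rb (the β chain shared by the receptors for IL-2 and IL-15) and Tbx21 (T-bet, a transcription factor of type 1 responses). A CD4 single-positive (SP) thymocyte was a member where the summed unique molecular identifiers (UMIs, counts of single captured RNA molecules) of the 6 genes reached 3 and where no T cell receptor alpha (TRA) contig joined TRAV11 to TRAJ18. A cell with no TRA contig passed the second condition unchecked. The rule was met by 252 of 8602 CD4 SP cells kept, out of 25223 cells kept in the whole series. The members were thus chosen by measured values of the 6 genes, so the levels of those genes, and every gene compared between members and the other cells, are given as a description. Il2rb lies at chr15:78479256-78511621, Trav11 at chr14:53519303-53519859 and Traj18 at chr14:54200777-54200842 of GRCm38.p6 (RefSeq).

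T cells that leave the thymus with effector traits include invariant natural killer T (iNKT) cells, whose alpha chain joins TRAV11 to TRAJ18 and whose programme depends on the transcription factor PLZF, encoded by Zbtb16. Mucosal-associated invariant T cells join TRAV1 to TRAJ33. Regulatory T cells, marked by Foxp3, also carry the IL-2 receptor β chain in the thymus, where IL-2 and IL-15 act in their development, and some regulatory cells re-enter the thymus from the periphery.

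The cells came from thymuses of adult female mice that carried CD3εI173A (hashtag 6) or were wild type (WT, hashtag 4). CD3ε is a signalling chain of the T cell receptor complex, and the study's title describes the mutation as one that enhances the receptor's signal. Stained suspensions were sorted into CD4 SP, CD8 SP and double-positive (DP) cells, and each sort gave 1 library for 5′ RNA, T cell receptor and hashtag counts, with both genotypes in it. The matrices also hold hashtag 5, for which the labels give no genotype, so its cells are reported under that name. The number of mice, their strain and their exact age are not given in the sources used here. Each genotype was therefore 1 sample, no test between genotypes was possible, and all intervals are exact 95% intervals for counting error only.

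Removed invariant chains and the TRAJ18 chains that remained among members are printed to show how they differ. Capitals mark the 25 bases at the 3′ end that all 8 share, and the letters are the nucleotide CDR3 as deposited, 5′ to 3′, from the TRA locus on chromosome 14. The 3 commonest chains of the removed cells were found on 51, 26 and 14 contigs, whereas each member chain was found on 1 contig.
Member, I173A, TRAV6-1 with TRAJ18: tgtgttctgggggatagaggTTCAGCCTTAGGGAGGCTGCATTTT
Member, I173A, TRAV9-4 with TRAJ18: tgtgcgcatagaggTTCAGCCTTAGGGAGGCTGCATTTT
Member, I173A, TRAV9N-4 with TRAJ18: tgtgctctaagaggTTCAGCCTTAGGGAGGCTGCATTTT
Member, hashtag 5, TRAV6N-5 with TRAJ18: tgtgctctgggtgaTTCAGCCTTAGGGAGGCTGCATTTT
Member, WT, TRAV6N-7 with TRAJ18: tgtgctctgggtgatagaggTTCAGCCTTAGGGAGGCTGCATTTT
Removed, TRAV11 with TRAJ18, 51 contigs: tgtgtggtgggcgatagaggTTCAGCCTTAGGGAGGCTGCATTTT
Removed, TRAV11 with TRAJ18, 26 contigs: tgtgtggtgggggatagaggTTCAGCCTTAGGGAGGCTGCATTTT
Removed, TRAV11 with TRAJ18, 14 contigs: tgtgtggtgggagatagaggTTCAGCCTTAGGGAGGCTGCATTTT

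Members made up a few percent of CD4 SP cells under each hashtag. They were 75 of 2664 I173A cells (2.82%, 2.22 to 3.52), 99 of 2829 hashtag 5 cells (3.50%, 2.85 to 4.24) and 78 of 3109 WT cells (2.51%, 1.99 to 3.12). The ratio of shares of I173A over WT was 1.12 (0.806 to 1.56), and that of hashtag 5 over WT was 1.39 (1.03 to 1.90). The I173A and WT shares were thus not distinguishable at this depth, and the unlabelled hashtag 5 differed more from WT than I173A did. The removed TRAV11–TRAJ18 cells were 37 of 2664 in I173A (1.39%), 35 of 2829 in hashtag 5 (1.24%) and 45 of 3109 in WT (1.45%), and 110 of these 117 cells also reached 3 UMIs of the 6 genes. The rule was met in the CD8 SP library by 8.70% of I173A, 6.27% of hashtag 5 and 6.33% of WT cells, and in the DP library by 0, 0 and 1 cells. DP cells were shallower, with medians of 2751, 2681 and 2907 UMIs for I173A, hashtag 5 and WT, against 5787, 6135 and 6079 in CD4 SP.

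**Figure D1:**
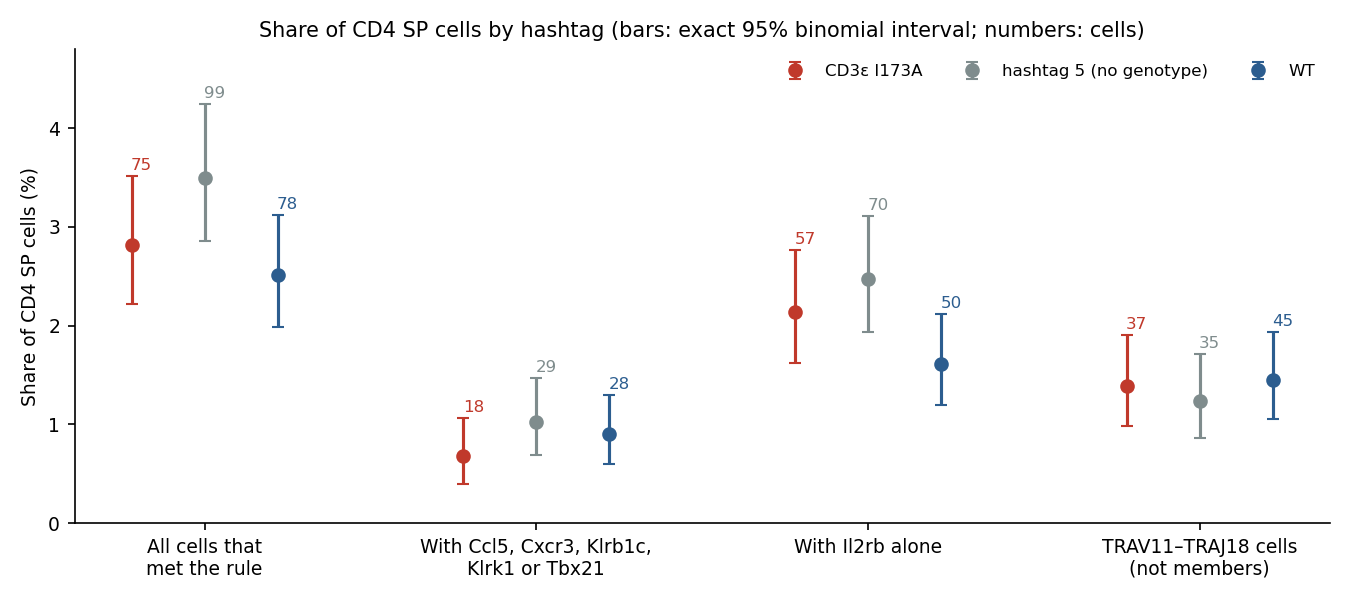
Share of CD4 SP cells (%) for all cells that met the rule, their 2 subsets and the removed TRAV11–TRAJ18 cells, with I173A left, hashtag 5 in the middle and WT right. Bars are exact 95% binomial intervals and numbers are cells; the I173A and WT intervals overlap in every set, and WT has the fewest Il2rb-alone cells (50).

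Il2rb carried most of the rule. It was detected in 238 of 252 members (94.4%) and gave 65.2% of their rule UMIs, while Cxcr3 was found in 43, Ccl5 in 41, Tbx21 in 18, Klrb1c in 13 and Klrk1 in 13. Only 1 of the 6 genes was detected in 187 members, and 1 member, a WT cell, had all 6. Il2rb alone admitted 177 members (70.2%), and the 75 that carried at least 1 of the remaining 5 genes, with or without Il2rb, are called other-gene cells. These 75 cells were 18 in I173A, 29 in hashtag 5 and 28 in WT, and the ratio of shares of I173A over WT was 0.750 (0.391 to 1.41). The Il2rb-alone cells numbered 57, 70 and 50, with a ratio of 1.33 (0.894 to 1.99). The point estimates of the 2 subsets lay on opposite sides of 1, and both intervals held 1. The ratio over all members was likewise below 1 where 2 or more of the 6 genes had to be detected (0.753) or Il2rb was left out of the rule (0.584). Among the single rule genes, members with Cxcr3 were 7 of 2664 I173A cells, 15 of 2829 hashtag 5 cells and 21 of 3109 WT cells, a ratio of 0.389 (0.140 to 0.950) for I173A over WT. Members with Ccl5 were 13, 16 and 12, a ratio of 1.26 (0.532 to 3.03). The I173A-over-WT ratios were 1.17 (0.832 to 1.64) for Il2rb, 0.875 (0.128 to 5.17) for Klrb1c, 0.500 (0.0835 to 2.19) for Klrk1 and 0.519 (0.117 to 1.86) for Tbx21. Of the 6 genes, only Cxcr3 thus had an interval that left out 1. Members were chosen by these same genes, so the ratios are a description.

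The threshold cut through a continuous range. Of the 94 cells with exactly 3 rule UMIs, 13.8% had a Foxp3 UMI, 9.57% an S100a6 UMI and 17% a Hopx UMI. Of the 249 cells just outside, with 2 rule UMIs, the shares were 10.0%, 4.02% and 11.6%. Of the 66 members with 7 or more, they were 27.3%, 57.6% and 71.2%. S100a6 and Hopx, a calcium-binding protein and an atypical homeodomain protein of effector and memory T cells, thus marked the top of the range far more often than its edge.

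**Figure D2:**
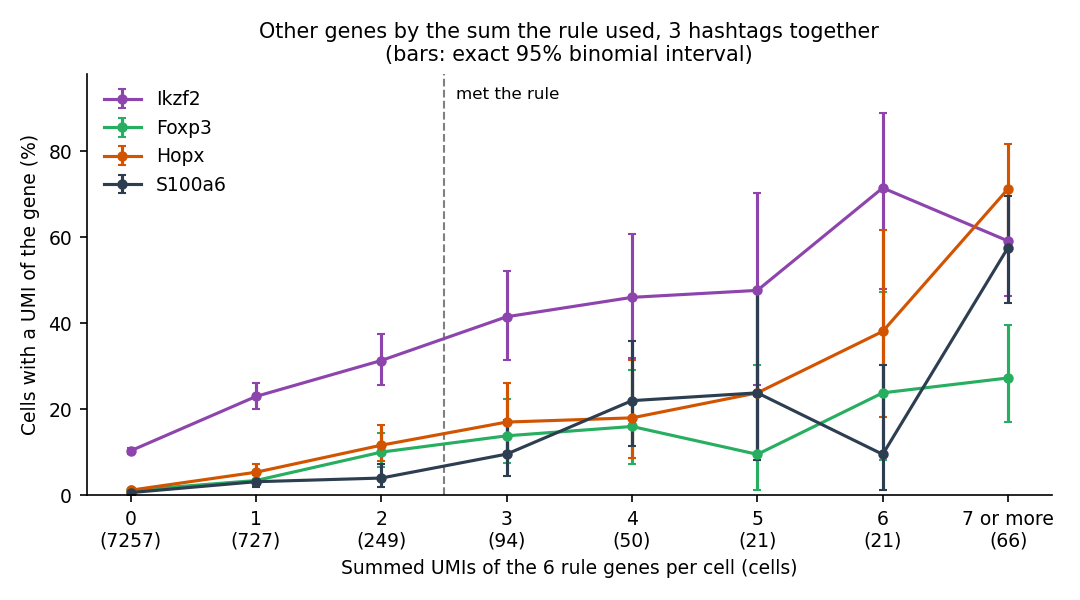
Share of cells with a UMI of Ikzf2, Foxp3, Hopx or S100a6 (%, y axis) by the summed UMIs of the 6 rule genes (x axis), the 3 hashtags together; bars are exact 95% binomial intervals and the dashed line is the threshold. Cells with 3 UMIs lie close to those with 2, and Hopx and S100a6 are found in over 57% of cells with 7 or more.

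The working name of these cells, innate-like CD4 cells, was checked against the fixed markers, and the data went against it for most of them. S100a6 was detected in 17 of 75 I173A, 23 of 99 hashtag 5 and 25 of 78 WT members, and Hopx in 19, 34 and 32. Zbtb16, which encodes PLZF, was detected in 2, 4 and 4 members, against 16 of 35 I173A, 16 of 33 hashtag 5 and 24 of 42 WT TRAV11–TRAJ18 cells that met the rule. Foxp3 was detected in 12 I173A members (16.0%), 19 hashtag 5 members (19.2%) and 15 WT members (19.2%), against 1.29%, 2.08% and 1.51% of the other CD4 SP cells. Members were deeper, with medians of 8523, 9270 and 8517 UMIs for I173A, hashtag 5 and WT, against 5730, 6040 and 6020 in the other CD4 SP cells. After each cell was thinned to 3000 UMIs, Foxp3 was found in 12.2%, 13.5% and 11.8% of members and in 0.546%, 1.38% and 0.831% of the other cells. DP cells, which should lack Foxp3, showed it in 0.222%, 0.217% and 0.358% of cells at the depths given above, and S100a6 in 0.443%, 0.398% and 0.238%. The cells are therefore called by their rule here, or by the subset they fall in.

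Both kinds of programme occurred, partly in the same cells. At least 3 of Foxp3, Il2ra, Ikzf2, Ctla4 and Tnfrsf18, 5 genes of regulatory T cells, were detected in 82 of 252 members (32.5%). At least 3 of S100a6, S100a4, Hopx, Nkg7 and Cxcr6, 5 genes of effector-type cells, were detected in 50 members (19.8%). Both held for 21 members and neither for 141, so that 56.0% of members reached neither set at this depth. Of 134 shallower cells with a Foxp3 UMI but fewer than 3 rule UMIs, 62 (46.3%) also reached neither, so the sets miss cells. Of the other CD4 SP cells, 2.98% reached the regulatory set and 0.206% the effector set. The effector set was met by 41 of the 75 other-gene cells (54.7%) and 9 of the 177 Il2rb-alone cells (5.08%), against 89 of 110 TRAV11–TRAJ18 cells (80.9%). The regulatory set was met by 28 other-gene cells (37.3%) and 54 Il2rb-alone cells (30.5%), against 4 of 110 TRAV11–TRAJ18 cells (3.64%).

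Compared with the other CD4 SP cells, members carried more RNA of effector, regulatory and cell cycle genes and less of immature and naive genes. Counts of each set were summed and given as counts per total UMIs of the set (CPM, the usual scale of UMIs per 1e+06), a gene was measured where the mean of both sets reached 20 CPM, and a gene was counted where the ratio passed 1.5-fold. Because a gene nearly absent from the other cells could enter only through the members, and because the rule used this contrast, the counts describe the members and support nothing further. In WT, 6316 genes were measured, of which 6.84% were higher and 11.1% lower in members, around a median log2 ratio of −0.10. Dividing all ratios by that median changed the split to 548 higher and 464 lower, against 432 and 701. In I173A, 6.42% were higher and 9.51% lower, and under hashtag 5, 5.59% and 7.11%.

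Effector and memory genes made the largest differences. Of 28 list genes for memory and effector surface and cytoskeleton, 23 were measured in WT, and 15 were higher and 0 lower (16 of 23 in I173A, 15 of 23 under hashtag 5). S100a6 stood at 134 CPM in I173A, 256 CPM in hashtag 5 and 432 CPM in WT members, against 4.63, 10.5 and 5.03 CPM in the other cells. Cxcr6, the receptor for the chemokine Cxcl16, stood at 37.8, 60.8 and 135 CPM in members, against 2.19, 1.15 and 1.24 CPM in the other cells. Both genes were above the other cells under all 3 hashtags and highest in WT members. Nkg7, a membrane protein of cytotoxic granules, stood at 117, 101 and 200 CPM, against 3.80, 2.07 and 2.44 CPM. Hopx stood at 108, 116 and 108 CPM, against 6.82, 5.80 and 3.83 CPM; 1 I173A cell held 37.3% of the I173A UMIs, and Hopx was detected in 25.3%, 34.3% and 41.0% of members. In WT, the members-over-others ratio was 108 (69.2 to 177) for Cxcr6, 85.9 (68.4 to 109) for S100a6, 82.3 (59.2 to 116) for Nkg7 and 28.1 (20.4 to 38.8) for Hopx. Lgals3 (galectin-3), S100a4, Ccr6 (the receptor for Ccl20) and Bhlhe40 (a transcription factor of cytokine-producing T cells) had ratios of 43.1, 39.1, 29.3 and 17.5, and Tigit, an inhibitory receptor, one of 78.5. Single cells weighed heavily: the WT member richest in each gene gave 46.9% of the WT members' Lgals3 UMIs and 32.4% of their S100a6 UMIs.

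Genes of regulatory T cells were higher under every hashtag. Of 17 list genes, 11 were measured in WT, and 10 were higher and 0 lower (8 of 9 in I173A, 11 of 12 under hashtag 5). Foxp3 stood at 36.5 CPM in I173A, 51.9 CPM in hashtag 5 and 66.8 CPM in WT members, against 2.70, 4.54 and 3.11 CPM in the other cells, a WT ratio of 21.5 (14.6 to 31.6). Il2ra (CD25, the α chain of the IL-2 receptor) stood at 160, 163 and 79.2 CPM, against 8.30, 11.4 and 6.79 CPM. Ikzf2 (Helios, a transcription factor of thymic regulatory cells) stood at 229, 367 and 208 CPM, against 76.2, 71.9 and 61.2 CPM. Ctla4, an inhibitory receptor, stood at 137, 164 and 108 CPM, against 27.5, 21.6 and 21.8 CPM. All 4 genes exceeded the other cells under each hashtag, and Il2ra was about level in I173A and hashtag 5 and lowest in WT.

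Cell cycle genes were also higher in members. Of 24 G2/M and S phase genes, 20 were measured in WT and 19 were higher, 18 of 20 in I173A and 12 of 16 under hashtag 5. Mki67, a proliferation marker, had a UMI in 10 of 75 I173A, 12 of 99 hashtag 5 and 8 of 78 WT members (13.3%, 12.1% and 10.3%), against 2.04%, 3.27% and 2.68% of the other cells. Mki67 at 3 or more UMIs was found in 19 of 177 Il2rb-alone cells (10.7%) and in 2 of 75 other-gene cells (2.67%).

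Genes of immature thymocytes were lower in members. Of 16 such genes, 7 were measured in WT and 6 were lower (7 of 8 in I173A, 5 of 7 under hashtag 5). Cd24a, a surface protein lost during maturation, stood at 14.3, 13 and 7.43 CPM in I173A, hashtag 5 and WT members, against 45.4, 34.7 and 39.5 CPM in the other cells. Ccr9, a chemokine receptor of young thymocytes, stood at 63.8, 67.8 and 53.2 CPM, against 305, 257 and 233 CPM. Cd8b1, the β chain of CD8, stood at 39.1, 19.0 and 16.1 CPM, against 98.8, 78.2 and 84.1 CPM. Of 20 genes of naive maturation and egress, 19 were measured in WT, 0 were higher and 10 lower, among them Satb1, a chromatin organiser, at 593 CPM in WT members against 1558 CPM in the other WT cells. Klf2, which controls egress genes, and S1pr1, the egress receptor, were nearer to the other cells, with WT ratios of 0.831 (0.754 to 0.914) and 0.666 (0.539 to 0.814). Without members that carried markers of other cell types, the log2 ratio of Klf2 was 0.16. That setting left 30 WT members and did not filter the other cells. It left out members with 2 or more UMIs of any such marker list, which alpha-beta T cells can also reach. For the macrophage and dendritic cell list, 51.4%, 30.3% and 35.7% of TRAV11–TRAJ18 cells of I173A, hashtag 5 and WT did. Of 7 CD4 lineage genes, 5 were lower in WT members and 0 higher, and Cd4 itself stood at 244 CPM against 383 CPM. The 12 genes with the lowest WT ratios also included Zcchc12, at 5.21, 23.9 and 2.48 CPM in I173A, hashtag 5 and WT members, so hashtag 5 lay apart from both genotypes there.

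The other-gene and Il2rb-alone subsets differed from each other in natural killer, effector and naive genes. The other-gene subset also used the rule's own readouts, and its difference is given as a description. In WT, 6176 genes were measured, of which 15.9% were higher and 18.8% lower in other-gene cells, and the shares were 21.1% and 22.7% in I173A and 20.2% and 17.2% under hashtag 5. Of 22 receptors and adaptors of natural killer cells, 8 were measured and all 8 were higher, and of 17 granule and killing genes, 11 were measured and 10 were higher. S100a6 stood at 572, 1073 and 1237 CPM in other-gene cells of I173A, hashtag 5 and WT, against 32.1, 29.3 and 73.3 CPM in Il2rb-alone cells. S100a4 stood at 227, 229 and 273 CPM, against 9.64, 33.1 and 7.16 CPM. Klrd1 (CD94, a natural killer receptor chain) stood at 110, 50.5 and 100 CPM, against 3.21, 0 and 0 CPM, where 0 means no UMI in 70 hashtag 5 and 50 WT cells. For these 3 genes the other-gene cells were above the Il2rb-alone cells under every hashtag.

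Naive-type genes ran the other way, and more regulatory genes were higher than lower in other-gene cells. Of the regulatory genes measured, 12 of 14 in I173A, 10 of 14 under hashtag 5 and 7 of 12 in WT were higher in other-gene cells, and 0, 1 and 1 were lower. Igfbp4, a binding protein of insulin-like growth factors found in naive T cells, was found in 2 of 18, 1 of 29 and 0 of 28 other-gene cells of I173A, hashtag 5 and WT, against 31 of 57, 30 of 70 and 21 of 50 Il2rb-alone cells. Ccr7, which guides cells to lymph nodes, stood at 276, 225 and 125 CPM, against 694, 526 and 669 CPM. In all, 11 of 19 measured naive and egress genes were lower in the other-gene cells of WT, and 2 were higher. Foxp3 was found in 5 of 18, 9 of 29 and 5 of 28 other-gene cells, against 7 of 57, 10 of 70 and 10 of 50 Il2rb-alone cells. Il2ra was found in 7, 11 and 4 other-gene cells, against 7, 14 and 10 Il2rb-alone cells. Ikzf2 was found in 8, 13 and 13 other-gene cells, against 27, 41 and 24 Il2rb-alone cells, close to equal shares (44.4%, 44.8% and 46.4% against 47.4%, 58.6% and 48.0%).

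**Figure D3:**
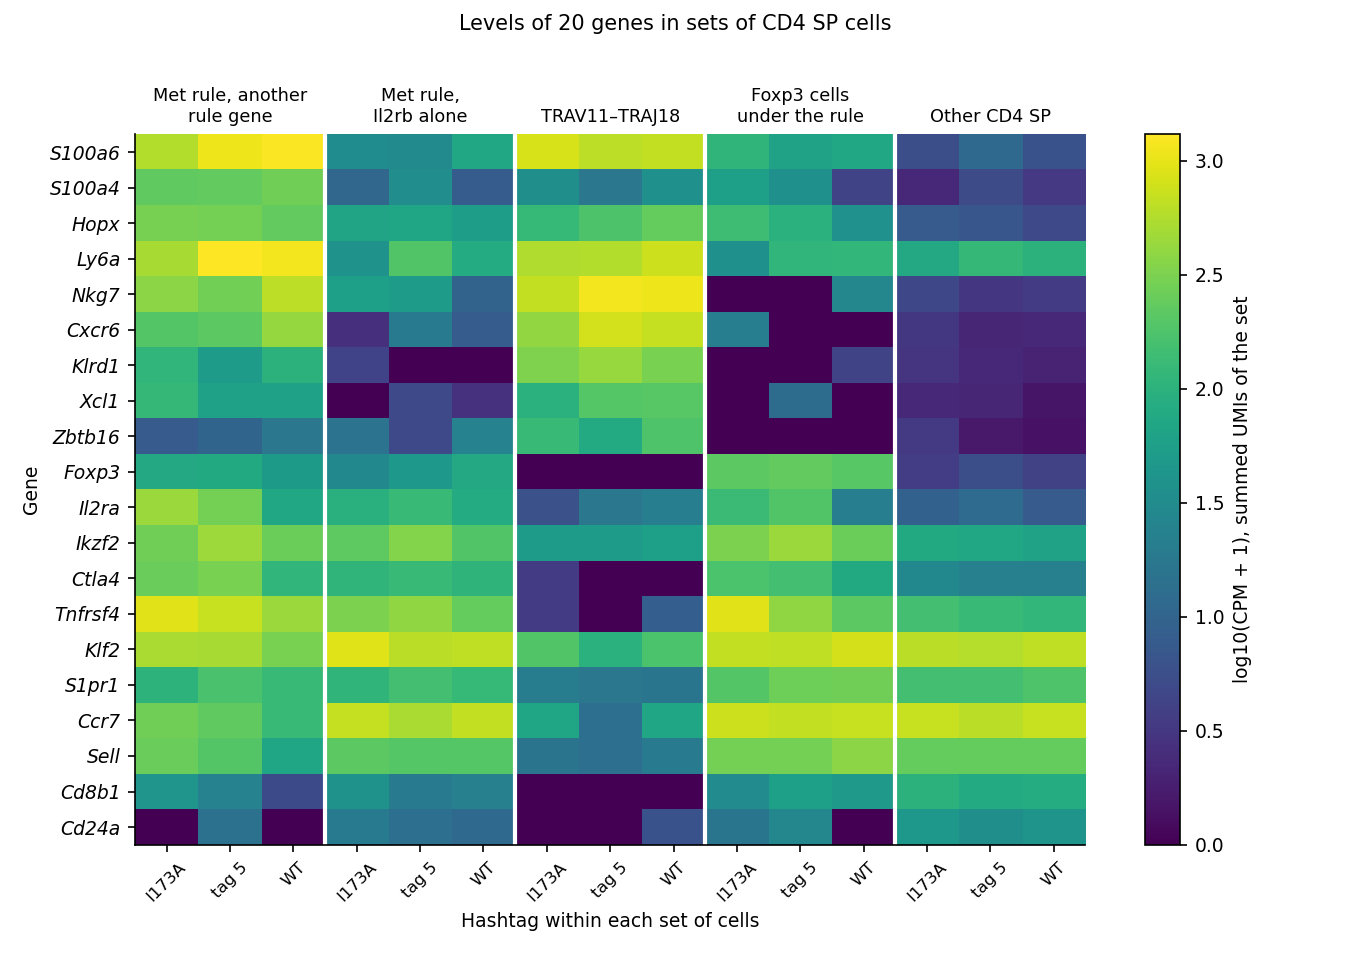
Levels of 20 genes (rows) as log10(CPM + 1) of summed UMIs in 5 sets of CD4 SP cells, each split by hashtag (columns, I173A left, hashtag 5, WT right); Foxp3 cells under the rule are also among the other CD4 SP cells. Other-gene cells share S100a6 and Nkg7 with TRAV11–TRAJ18 cells and Tnfrsf4 with Foxp3 cells, and Il2rb-alone cells lie near the other CD4 SP cells for Klf2 and Ccr7. Foxp3 and Ikzf2 were detected in both subsets and in Foxp3 cells, which were chosen by Foxp3.

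Against the TRAV11–TRAJ18 cells that met the same 3-UMI rule, members carried less RNA of natural killer genes and Zbtb16 and more of regulatory and egress genes. In WT, 6151 genes were measured, of which 16.5% were higher and 13.1% lower in members, and the shares were 19.8% and 11% in I173A and 18.7% and 12.9% under hashtag 5. Of 11 natural killer receptors and adaptors measured, all 11 were lower in WT members, and so were 12 of 12 in I173A. Zbtb16 stood at 13, 4.99 and 21.0 CPM in I173A, hashtag 5 and WT members, against 130, 80.1 and 180 CPM in the TRAV11–TRAJ18 cells. Klrd1 stood at 23.4, 11 and 30.9 CPM, against 329, 426 and 304 CPM. Klra9, an inhibitory receptor of the Ly49 family, had the lowest WT ratio, 0.034 (0.0107 to 0.083), followed by Ccr2, Klrc1 and Ly6c2 at 0.0497, 0.0683 and 0.070. Xcl1 (a chemokine), Zfp683 (Hobit, a transcription factor of resident T cells) and Padi2 had ratios of 0.0978 each. The interval of the WT ratio lay below 1 for each of these 9 genes. For those named by their lowest ratios this followed from the choice, which required an interval that left out 1.

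In the same comparison, 8 of 11 regulatory genes and 13 of 19 naive and egress genes were higher in WT members (8 of 9 and 16 of 19 in I173A). Tnfrsf4 (OX40, a costimulatory receptor) stood at 431, 463 and 298 CPM in I173A, hashtag 5 and WT members, against 2.49, 0 and 7.59 CPM. Ctla4 had 87 UMIs in 78 WT members and 0 in 42 WT TRAV11–TRAJ18 cells, at least 14.2-fold higher when the 0 is replaced by 3 counts over that group. Foxp3 had 54 UMIs and 0, at least 8.81-fold higher by the same floor. S1pr1 was 7.99-fold higher (3.54 to 22.3) and Klf2 3.21-fold higher (2.48 to 4.22). S100a6 and Hopx differed less than the natural killer genes did, with ratios of 0.632 (0.538 to 0.744) and 0.458 (0.338 to 0.620). S100a4 went the other way, with a ratio of 2.52 (1.41 to 4.83), so the effector-type genes were not uniformly lower in members.

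Set beside the Foxp3 cells under the rule, which had a Foxp3 UMI and fewer than 3 rule UMIs (33 in I173A, 56 in hashtag 5 and 45 in WT), members had levels of Ctla4 in the same range. Of the regulatory genes measured, 1 of 12 was higher and 5 lower in I173A members, 1 of 13 higher and 3 lower under hashtag 5, and 4 of 12 higher and 2 lower in WT members. Foxp3 is on that list and was the gene that chose the Foxp3 cells, so its lower level in members followed from the choice. In WT, 13% of 6226 measured genes were higher and 17.6% lower in members, against 11.8% and 20% in I173A and 9.54% and 15.2% under hashtag 5. Ikzf2 stood at 229, 367 and 208 CPM in I173A, hashtag 5 and WT members, against 316, 446 and 263 CPM in Foxp3 cells. Ctla4 stood at 137, 164 and 108 CPM, against 168, 152 and 77.5 CPM. Ccr8, a chemokine receptor of regulatory cells, stood at 102, 134 and 79.2 CPM, against 97.0, 67.4 and 84.2 CPM. For Ctla4 all 3 ratio intervals held 1, for Ccr8 those of I173A and WT did, and Ikzf2 was somewhat lower in members under each hashtag. Nkg7 was at 0 in Foxp3 cells of I173A and hashtag 5 and at 26.9 CPM in those of WT, and Ly6a stood at 128, 428 and 407 CPM in members, against 35.7, 111 and 115 CPM. Members had 15 of 23 measured memory and effector genes higher in WT, 8 of 23 in I173A and 13 of 25 under hashtag 5. Of the interferon-stimulated genes, 12 of 28 were lower and 0 higher in WT members, and 17 of 28 were lower and 0 higher under hashtag 5. In I173A, 6 of 27 were lower and 3 higher, a share close to the 20% of all genes.

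The T cell receptors of members were diverse. A TRA contig was found in 214 of 252 members (84.9%, 79.9 to 89.1), against 88.4% of the other CD4 SP cells. A beta chain (TRB) contig was found in 231 members (91.7%), against 93.9% of the other cells. Of the 75 other-gene cells, 56 (74.7%) had a TRA contig. A TRAV11–TRAJ18 chain could not be looked for in members without one. The 245 TRA contigs of members used 70 TRAV and 42 TRAJ genes and held 243 distinct nucleotide CDR3 sequences. The TRAV11–TRAJ18 cells held 15 distinct sequences on 116 contigs, a contrast largely set by the join that defined those cells. TRAV1 with TRAJ33 was found in 0 of 214 members, which allows a share of up to 1.71%. TRAJ18 was found in 5 of 214 (2.34%, 0.763 to 5.37), in the sequences printed above, against 2.58% of the other cells, so it was no commoner in members. TRBV13-2, TRBV1 or TRBV29, the beta genes that encode the Vβ8, Vβ2 and Vβ7 families favoured by iNKT cells, were used by 15 of 70 I173A, 18 of 89 hashtag 5 and 12 of 72 WT members with a TRB contig. Over the 3 hashtags this was 19.5% of members (14.6 to 25.2), against 77.1% of TRAV11–TRAJ18 cells and 19.7% of the other CD4 SP cells.

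**Figure D4:**
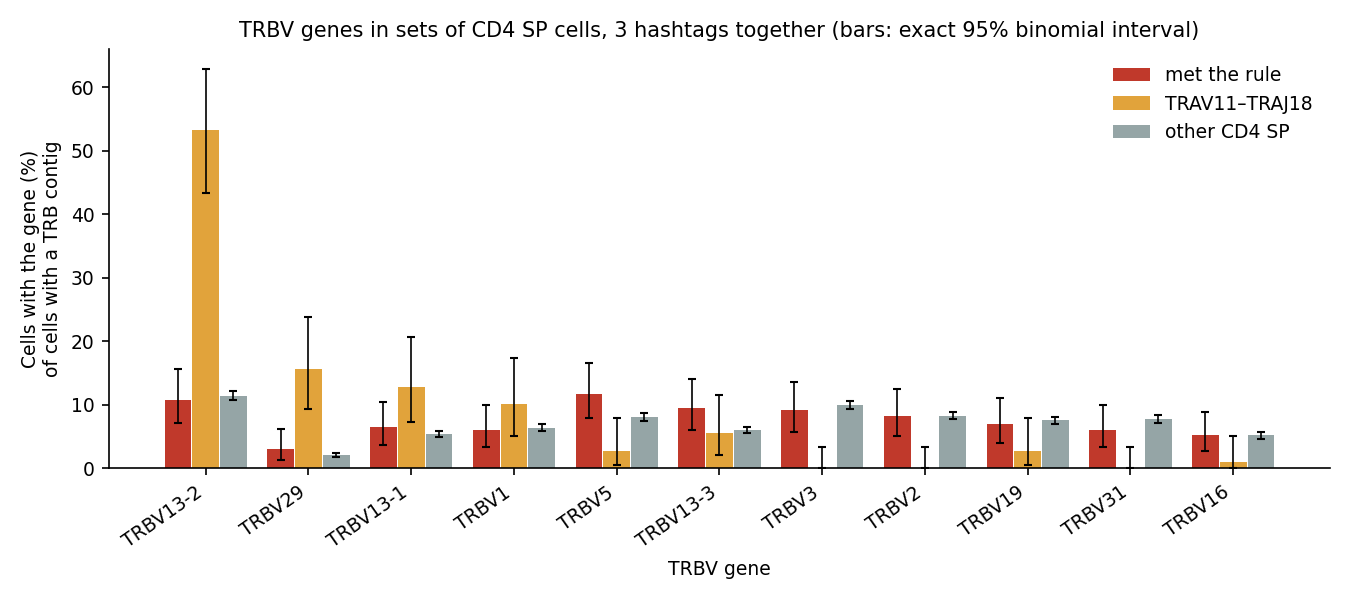
Share of cells with each TRBV gene (%, of cells with a TRB contig) in members, TRAV11–TRAJ18 cells that met the rule and the other CD4 SP cells, the 3 hashtags together, with exact 95% binomial intervals. TRBV13-2 is at 10.8% in members, 53.2% in TRAV11–TRAJ18 cells and 11.4% in the other cells.

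Few chain pairs recurred. The 210 members with both chains held 209 distinct pairs, and 3 of them (1.43%, 0.296 to 4.12) shared a pair with some CD4 SP cell, against 20 of 7177 other cells (0.279%). The pair that recurred within the members belonged to 2 WT cells and is printed because it is the one repeated clone; its alpha CDR3 lies on chromosome 14 and its beta CDR3 on chromosome 6.
WT pair, TRAV7-3 with TRAJ16: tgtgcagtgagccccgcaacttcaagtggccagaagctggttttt
WT pair, TRBV5 with TRBJ2-7: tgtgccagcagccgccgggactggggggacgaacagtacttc
No chain of either kind was recovered in 17 members, 4 in I173A, 9 in hashtag 5 and 4 in WT. Of these, 12 were among the 75 other-gene cells (16.0%, 8.55 to 26.3) and 5 among the 177 Il2rb-alone cells (2.82%, 0.923 to 6.47), against 4.91% of the other cells. Gamma-delta T cell markers were read beside this: 2 or more UMIs of the 8 markers occurred in 2 of 18, 3 of 29 and 7 of 28 other-gene cells of I173A, hashtag 5 and WT, and in 3 of 57, 3 of 70 and 0 of 50 Il2rb-alone cells. The summed level of the 8 markers was 172, 68.8 and 108 CPM in other-gene cells, 91.5, 157 and 0 CPM in Il2rb-alone cells and 7.78, 6.15 and 7.00 CPM in the other cells. Trdc, the delta constant gene, was at 0 in other-gene cells of I173A and hashtag 5 and had UMIs in 2 of 28 of WT. The TRAV11–TRAJ18 cells, which carry alpha-beta chains, had 199, 346 and 306 CPM of the same list with Trdc at 0. The part of gamma-delta cells in these results was not tested. Other cell types were also read: the B cell markers Ms4a1, Ebf1, Pax5 and Iglc2 were at 0 in members under all 3 hashtags, and 5 erythroid markers were at 0. The summed level of all 8 B cell markers, which include Ighm and Cd79b, was 62.5, 95.8 and 82.9 CPM in members, against 69.0, 51.7 and 70.1 CPM in the other cells. At least 2 UMIs of them occurred in 16.0%, 15.2% and 21.8% of members, against 9.95%, 7.53% and 10.6% of the other cells, which were shallower. Of 10 natural killer cell markers, Ncr1 and Klra8 were at 0 in members, and the summed level was 49.5, 21.9 and 59.4 CPM, against 16.3, 12.8 and 8.40 CPM in the other cells. Of 12 macrophage and dendritic cell markers, Itgax, Siglech and Mpeg1 were at 0, and the summed level was 133, 144 and 124 CPM, against 103, 172 and 96.8 CPM. Cells with 2 or more UMIs of that list were 32%, 28.3% and 29.5% of members, against 12.03%, 13.8% and 12.6% of the other cells. For the 2 CD8 T cell markers these shares were 12%, 3.03% and 2.56%, against 12.1%, 10.4% and 10.1%. The I173A and WT intervals among members overlapped there (5.64 to 21.6 and 0.312 to 8.96). For 9 epithelial and stromal markers the shares were 24%, 20.2% and 15.4%, against 15.01%, 15.3% and 13.7%. Members with 2 or more TRB contigs, as a doublet could have, were 15 of 252 (5.95%), against 4.94% of the other cells.

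Between genotypes, I173A members carried less RNA of effector genes and more of a few metabolic genes and of Klf2 than WT members. These are 2 sets of 75 and 78 cells of 1 sample each. Of 6275 genes measured, 8.69% were higher and 5.51% lower by 1.5-fold in I173A, whereas in the other CD4 SP cells, with far more UMIs, 0.235% and 0.157% were. Dividing by the median ratio changed the 545 higher and 346 lower genes to 457 and 436. Between hashtag 5 and WT members, 7.67% were higher and 4.62% lower, nearly as many, and in the other cells 0.157% and 0.063%.

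Effector and type 1 genes were lower in I173A members. Of 24 memory and effector genes measured, 8 were lower and 0 higher, with a median log2 ratio of −0.19 against 0.05 over all genes measured, and of 10 type 1 helper genes, 6 were lower and 0 higher, with a median of −0.64. S100a6 stood at 134 CPM in I173A, 256 CPM in hashtag 5 and 432 CPM in WT members, an I173A-over-WT ratio of 0.311 (0.247 to 0.388). Ly6a, a surface protein of activated T cells, stood at 128, 428 and 407 CPM, a ratio of 0.313 (0.248 to 0.394). Among members, Ly6a was low under I173A alone, while S100a6 of hashtag 5 lay between the 2 genotypes. Ly6a was also lowest in I173A among the Foxp3 cells under the rule, by the levels given above. Cxcr6 had a ratio of 0.280 (0.179 to 0.425) and Tigit one of 0.206 (0.0886 to 0.426). Lgals3 stood at 39.1, 22.9 and 158 CPM, a ratio of 0.247 (0.160 to 0.369), with hashtag 5 below I173A and 46.9% of the WT UMIs in 1 cell. Without members that carried markers of other cell types, which left 27 I173A and 30 WT members, the log2 ratio of Lgals3 was 1.30, higher in I173A. This filter can also remove T cells with a few UMIs of those marker lists, as given above. Tagln2, an actin-binding protein, had a ratio of 0.362 (0.287 to 0.454), Bcl2a1d, a survival protein, one of 0.356 (0.212 to 0.578) and Bhlhe40 one of 0.351 (0.160 to 0.711), which was 1.12 (0.399 to 3.27) in Il2rb-alone cells. Hopx stood at 108 CPM in I173A and 108 CPM in WT members (ratio 1.00, 0.734 to 1.37), but 1 I173A cell held 37.3% of the I173A UMIs, against 8.05% in the richest WT cell. Without the cell richest in Hopx of each genotype its log2 ratio was −0.55, and it was detected in 25.3% of I173A members (16.0 to 36.7) and 41.0% of WT members (30.0 to 52.7).

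Other-gene cells were 24.0% of I173A (14.9 to 35.3), 29.3% of hashtag 5 (20.6 to 39.3) and 35.9% of WT members (25.3 to 47.6). These intervals overlapped, so a difference in make-up between the sets was not established. Within other-gene cells, 22.8% of 6193 measured genes were higher and 19.2% lower in I173A. There S100a6 had an I173A-over-WT ratio of 0.462 (0.358 to 0.591), Ly6a 0.447 (0.341 to 0.579), Cxcr6 0.457 (0.290 to 0.700) and Tigit 0.163 (0.0425 to 0.450). Within Il2rb-alone cells 10.7% of 6260 measured genes were higher and 7.49% lower, and the ratios were 0.438 (0.243 to 0.765) for S100a6, 0.479 (0.279 to 0.803) for Ly6a and 1.12 (0.242 to 5.66) for Tigit. The S100a6 and Ly6a ratios were thus below 1 in both subsets and nearer to 1 than over all members. The part of make-up in the ratios over all members was not tested. The S100a6 ratios rest on few cells. It was detected in 10 of 18 I173A and 18 of 28 WT other-gene cells (55.6% and 64.3%). In Il2rb-alone cells it was detected in 7 of 57 and 7 of 50 (12.3% and 14.0%). The intervals of these shares overlapped, and 1 WT member held 113 S100a6 UMIs, 32.4% of those of WT members. Il2ra went the other way in other-gene cells, at 441, 289 and 72.3 CPM in I173A, hashtag 5 and WT, a ratio of 6.10 (3.57 to 10.9), and not detectably in Il2rb-alone cells (1.15, 0.770 to 1.73). The Il2ra value of I173A rests on 7 of 18 cells with a UMI, against 4 of 28 in WT.

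Some differences were those of the whole CD4 SP gate. Cpt1a, which admits long-chain fatty acids to mitochondria, stood at 36.5, 7.98 and 6.19 CPM in I173A, hashtag 5 and WT members, a ratio of 5.89 (2.25 to 19.5), and 20 of 75 I173A against 4 of 78 WT members had a UMI. In the other CD4 SP cells the ratio was 4.50 (3.79 to 5.36). Of 14 fatty acid oxidation genes measured, 4 were higher and 1 lower in I173A members. Tsc22d3 (GILZ, a glucocorticoid-induced regulator) had ratios of 2.35 (1.72 to 3.24) in members and 2.29 (2.15 to 2.43) in the other cells. Ddit4, an inhibitor of mTORC1, had ratios of 2.08 (1.70 to 2.55) and 2.15 (2.06 to 2.24). Jun, a subunit of AP-1, had ratios of 0.291 (0.144 to 0.547) and 0.368 (0.318 to 0.425), and Hsph1, a heat shock protein, 0.296 (0.165 to 0.506) and 0.385 (0.335 to 0.442). For these 5 genes the intervals of members and other cells overlapped.

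Other genes had a larger excess over WT in members than in the rest. Ecm1, a secreted matrix protein, stood at 133, 123 and 37.1 CPM in I173A, hashtag 5 and WT members, a ratio of 3.58 (2.36 to 5.57), against 1.07 (0.957 to 1.20) in the other cells. Slc35a1, the transporter of CMP-sialic acid, had 3.26 (1.56 to 7.46) against 1.07 (0.948 to 1.20). Vmn2r97, annotated as a vomeronasal receptor gene, had 4.21 (1.90 to 10.6) against 1.19 (1.07 to 1.32). For Ecm1, Slc35a1 and Vmn2r97 the hashtag 5 members were also above WT, with ratios of 3.30 (2.20 to 5.10), 3.47 (1.71 to 7.73) and 2.72 (1.20 to 6.93), so these differences set WT apart from both others. Klf2 stood at 836, 599 and 545 CPM, a ratio of 1.54 (1.36 to 1.74), against 0.939 (0.915 to 0.965) in the other cells. Of 19 naive and egress genes measured, 2 were higher and 0 lower in I173A members, and the ratio of S1pr1 was 0.891 (0.657 to 1.21). Nr4a1, an immediate response gene of the T cell receptor, stood at 173.2, 224 and 80.4 CPM, with a ratio of 2.15 (1.59 to 2.94) against 1.5 (1.43 to 1.58).

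**Figure D5:**
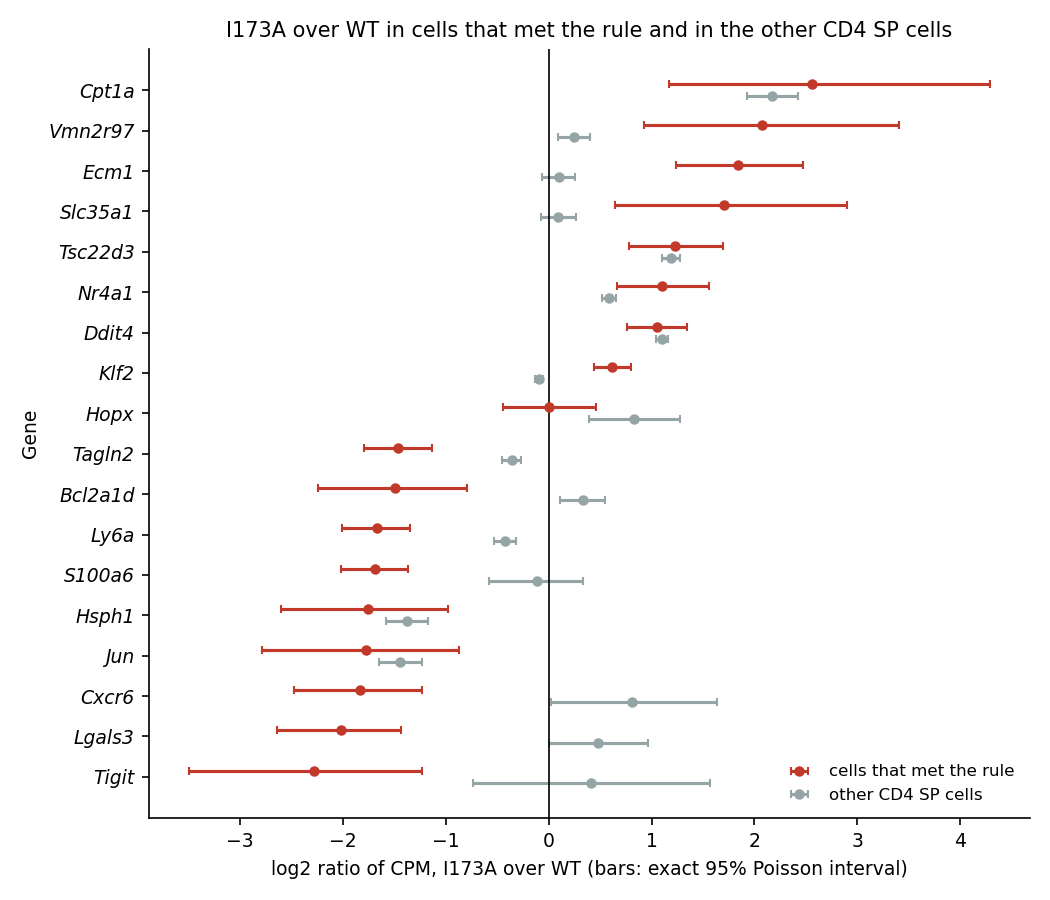
I173A over WT for 18 genes as log2 ratios of CPM (x axis) in cells that met the rule (red) and in the other CD4 SP cells (grey), with exact 95% Poisson intervals. Cpt1a, Tsc22d3, Ddit4, Jun and Hsph1 have overlapping intervals in both sets, whereas S100a6, Lgals3 and Cxcr6 are lower in I173A members and not detectably lower in the other I173A cells (Lgals3 was higher in I173A without members that carried markers of other cell types).

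Of the 12 genes with the highest ratios by the rule for named genes, 6 were replication-dependent histone genes, and 1 cell held much of their RNA. Hist1h3f, Hist1h3a, Hist1h3i, Hist1h3e, Hist1h4c and Hist1h4n had I173A-over-WT ratios of 7.61, 5.05, 4.48, 4.44, 3.42 and 3.37 in members. A single I173A member with 28434 UMIs, 35 of them Mki67, held the most UMIs of all 6 genes, such as 127 of the 144 Hist1h3a UMIs. Without that cell the ratios were 2.77 (1.42 to 5.74) for Hist1h3f, 0.619 (0.320 to 1.16) for Hist1h3a, 0.529 (0.265 to 1.01) for Hist1h3i, 1.70 (1.23 to 2.37) for Hist1h3e, 1.73 (0.797 to 3.91) for Hist1h4c and 1.24 (0.732 to 2.12) for Hist1h4n. The intervals of Hist1h3f and Hist1h3e thus stayed above 1 without that cell, and the other 4 held 1. Histone genes are near-identical copies, so their counts are also uncertain between members of the family.

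Cd3e, the gene that carries the mutation, stood at 1154, 991 and 1004 CPM in I173A, hashtag 5 and WT members, and a substitution cannot be checked by its count. The CD4 SP, CD8 SP and DP libraries shared 124, 109 and 109 cell barcodes between CD4 SP and CD8 SP, CD4 SP and DP, and CD8 SP and DP, and 4 members had a barcode also present in another library. The CD4 SP library held 60770018 UMIs over 9081 barcodes.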

How the data were processed

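The authors deposited 10x matrices of UMI counts per gene and cell, hashtag counts and T cell receptor contig tables with UMI counts per contig, for which the submitters' processing notes list Cell Ranger 6.0.1 and the builds mm10 and GRCm38; the contigs' umis columns are also counts, per the file headers. Each of 3 libraries (CD4 SP, CD8 SP, DP) is 1 sample that holds all hashtags. Cells were kept with 500 or more genes, at most 10% mitochondrial UMIs, and 1 hashtag of 10 or more counts that was at least 4 times each other. The hashtag step removed 410 of the 9012 CD4 SP cells that passed the gene and mitochondrial filters (4.55%). No doublet caller was run, so doublets within a hashtag remain.

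Counts were summed over cells of a set and hashtag and divided by the set's summed gene UMIs (CPM). Ratios have exact conditional Poisson intervals, shares have exact (Clopper-Pearson) binomial intervals, both 95% and for counting error only. A count of 0 in a ratio was replaced by 3 counts over the group. No count test was run, since each genotype is 1 sample. The ratio and its interval were checked on simulated counts with known folds. Named genes were the 12 highest and the 12 lowest ratios (8 and 8 against TRAV11–TRAJ18 cells). They needed an interval that left out 1, and 30 or more UMIs, 30 CPM and 10 cells in the higher set. Rule genes, a short set of study genes and list genes were named besides. The members and the 30 lists (404 genes) were chosen with earlier results of these data known. Gene names are those of the 31053-gene matrices. Thinning drew 3000 UMIs per cell and left out shallower cells. The tools were Python 3.11.15, numpy 2.4.6, scipy 1.17.1 and pandas 2.3.3. Alternatives were other UMI and cell thresholds, hashtag rules, filters and weightings.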

Additional observations from a re-analysis of the deposited data

Results flagged for a closer look

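For 8 genes the I173A-over-WT ratio had an interval wholly on one side of 1 in members and wholly on the other side in the other CD4 SP cells; the difference between the 2 sets was not tested. The log2 ratios in members were 2.34 for Hist1h3a, 1.77 for Hist1h4c and 1.75 for Hist1h4n, with 1 I173A cell holding 88.2%, 51.3% and 64.5% of the I173A UMIs. They were −2.02 for Lgals3, −1.84 for Cxcr6, −1.51 for Bhlhe40 and −1.49 for Bcl2a1d, all lower in I173A members and higher in the other I173A cells, where Cxcr6 stood at 2.19 CPM in I173A and 1.24 CPM in WT and Lgals3 at 5.15 CPM in I173A and 3.68 CPM in WT. Klf2 had a log2 ratio of 0.62 in members and was slightly lower in the other I173A cells.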

How the results depend on the processing

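Of the summary values recomputed under an alternative, 67 kept their size and 24 moved, and of the values of single genes 863 kept their size, 88 moved and 12 reversed. The share of members in I173A and WT was 5.93% and 4.82% with 2 or more rule UMIs, 1.65% and 1.58% with 4 or more, 0.762% and 0.831% after thinning to 3000 UMIs, 1.01% and 0.965% without members that carried markers of other cell types, 0.751% and 0.997% with 2 or more of the 6 genes detected (ratio 0.753), and 0.375% and 0.643% without Il2rb in the rule (ratio 0.584). The ratio of I173A over WT was thus above 1 under some rules and below 1 under others, and the cause was not tested. Il2rb alone admitted 57.6% of members with 4 or more UMIs and 44.1% after thinning, against 70.2%. Genes higher and lower in WT members than in the other cells numbered 1070 and 1428 with a filter of 5 CPM, which tests more genes, and 464 were lower after division by the median ratio. Between I173A and WT members they numbered 1367 and 1026 with 5 CPM and 1171 and 936 without members of other types, which leaves fewer cells, and 635 were lower with 4 or more UMIs. With that filter the log2 ratio was 0.16 for Klf2 in WT members against the unfiltered other cells. For I173A over WT it was 1.30 for Lgals3 and 1.53 for Foxp3, and the cause was not tested. TRAV11–TRAJ18 cells also reached a marker list, as given above, so the filter can remove T cells. The remaining reversals, for I173A over WT, came from settings chosen after seeing the data. Without cells of 3 or more Mki67 UMIs the log2 ratio was −0.55 for Hist1h3a, −1.46 for Hist1h3i, −0.38 for Hist1h3e, −0.46 for Hist1h4c and −0.65 for Hist1h4n. Without the cell richest in each gene it was −0.23 for Hist1h3a and −0.60 for Hist1h3i, and with Il2rb-alone members only it was 0.17 for Tigit and 0.17 for Bhlhe40. No paired analysis was possible because each genotype is 1 sample and no test was run. Depth limits the single-cell shares: most members carry 3 or 4 rule UMIs, and a gene with 0 UMIs in a subset of 18 to 28 cells may be present.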
